A study of Mus musculus with 16 samples.

Results

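The classical and nonclassical MHC class I genes H2-K1, H2-D1, H2-Q4, H2-Q6, H2-Q7, H2-T22, H2-T23 and H2-M3, the light chain gene B2m and the transactivator gene Nlrc5 were followed across MC38 tumors of mice given anti-PD-1 (aPD-1) or control antibody. These 10 genes were listed by name as members of the class I pathway, with earlier results of these data known, and were matched by symbol to the 53465 genes of the count table, where all 10 were found and all 10 were among the 18251 genes with enough counts to be tested. MC38 is a mouse colon adenocarcinoma cell line, here implanted under the skin of the right flank of female C57BL/6 mice that were 6 to 8 weeks old. All mice received 200 µg of antibody on day 16 and again on day 20 after implantation, either an IgG control (n = 8) or aPD-1 (n = 8), and tumors were taken on day 21. The aPD-1 tumors were divided by the study into responders (n = 2) and non-responders (n = 6) by how many CD8 T cells were stained in the tumor tissue, so a response here is an infiltrate at an early time and not a regression. RNA was extracted from sections of 100 µm cut from 1 frozen block per tumor, and each tumor came from another mouse.

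MHC class I molecules are built of a heavy chain and B2m, and they carry peptides made inside the cell to its surface, where CD8 T cells read them. The classical heavy chains, H2-K1 and H2-D1 in this strain, are present on nearly all nucleated cells, whereas the nonclassical heavy chains are less variable and mostly less abundant, and several of them are read by natural killer cells or by unconventional T cells. Interferon gamma raises transcription of the class I genes, and NLRC5 joins a complex of factors at the X and Y boxes of their promoters.

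In the GRCm38 mouse genome the 8 heavy chain genes lie on chromosome 17, B2m on chromosome 2 and Nlrc5 on chromosome 8. RefSeq promoter windows of this build (GRCm38.p6) were matched for 9 of the 10 genes, with Nlrc5 as the exception. The 250 bases before the annotated start are shown for H2-K1 and H2-D1, which are the most abundant heavy chain genes, for their partner B2m, and for H2-T23, the gene on which the comparison of responders with non-responders turned. They lie at chr17:34000348-34000597 on the minus strand (H2-K1), chr17:35262844-35263093 on the plus strand (H2-D1), chr2:122147437-122147686 on the plus strand (B2m) and chr17:36032702-36032951 on the minus strand (H2-T23), and are written 5′ to 3′ along the gene. GENCODE places the outermost end of H2-D1 and H2-T23 farther upstream than RefSeq does. Capitals mark, on either strand, GGGATTCC (a kappa B site), GAAANNGAA and GAAGTGAAA (forms of the interferon stimulated response element), TGACG (core of the X2 element) and ATTGG (the Y box, CCAAT on the other strand).
H2-K1: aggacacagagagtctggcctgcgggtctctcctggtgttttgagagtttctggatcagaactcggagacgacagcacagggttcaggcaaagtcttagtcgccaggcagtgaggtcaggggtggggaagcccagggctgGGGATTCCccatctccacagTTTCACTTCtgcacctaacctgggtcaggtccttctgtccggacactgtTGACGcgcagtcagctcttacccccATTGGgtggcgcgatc
H2-D1: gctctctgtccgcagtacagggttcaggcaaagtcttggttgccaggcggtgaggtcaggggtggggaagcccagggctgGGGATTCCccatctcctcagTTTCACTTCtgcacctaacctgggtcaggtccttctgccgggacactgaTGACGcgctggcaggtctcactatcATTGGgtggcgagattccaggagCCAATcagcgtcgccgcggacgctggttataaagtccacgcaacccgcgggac
B2m: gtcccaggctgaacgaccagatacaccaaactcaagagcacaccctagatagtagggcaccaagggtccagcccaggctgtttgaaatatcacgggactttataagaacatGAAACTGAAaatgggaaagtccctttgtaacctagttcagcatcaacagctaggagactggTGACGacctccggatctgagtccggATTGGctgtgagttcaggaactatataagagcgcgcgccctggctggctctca
H2-T23: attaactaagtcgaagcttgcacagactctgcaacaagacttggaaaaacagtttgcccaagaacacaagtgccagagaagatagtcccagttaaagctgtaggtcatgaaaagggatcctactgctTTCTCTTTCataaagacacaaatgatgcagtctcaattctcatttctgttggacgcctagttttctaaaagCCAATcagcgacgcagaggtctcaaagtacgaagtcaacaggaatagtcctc

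The 4 windows did not hold the same letters. H2-K1 and H2-D1 shared an ordered block of GGGATTCC, GAAGTGAAA read on the other strand, TGACG and ATTGG. B2m held GAAACTGAA, TGACG and ATTGG, but no kappa B site of this spelling. H2-T23 held GAAANNGAA on the other strand and the Y box, and neither GGGATTCC nor TGACG. Over the 9 genes with a window, ATTGG was found in 9, TGACG in 7, GAAGTGAAA in 6, GGGATTCC in 4 and GAAANNGAA in 3, where the last was in H2-T23, H2-T22 and B2m. Among all 32851 RefSeq windows of this length these motifs were in 33.9%, 17.8%, 0.402%, 0.889% and 7.13%, in the same order. Among the 15502 windows of tested genes they were in 35%, 24.4%, 0.419%, 0.993% and 6.425%. GAAGTGAAA was added to the search after the windows had been read, and the heavy chain genes are copies of each other, so their windows are not independent. A match is a description of letters, not evidence of binding.

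Total counts per tumor lay between 26603477 and 39948874, and each class I gene had at least 664 counts in every tumor, so sampling error was small beside the differences between tumors. Levels are given as CPM (a gene's counts as a share of the tumor's library size, on the usual scale) after TMM scaling, which makes tumors comparable. In IgG control 3 a single gene, CT010467.1, held 20.4% of the counts, against at most 2.19% for the top gene of any other tumor. Its TMM factor was 0.784. A set of 3 tumors, IgG control 1 and non-responders 9 and 14, stood apart from the other 13 on the first principal component, with 7.60%, 6.00% and 5.73% of their counts from mitochondrial genes against 2.52% to 3.25% elsewhere, and results that change without them are marked. The responders stood apart as well: Ptprc, the leukocyte antigen CD45, was at 558 and 434 CPM in them, against 109 to 148 CPM in non-responders and 83.3 to 145 CPM in IgG controls. Genes of colon epithelium were nearly absent, in that Cdx1, Cdx2 and Vil1 did not exceed 0.283 CPM in any tumor and Epcam, Krt8, Krt18 and Krt19 did not exceed 1.80 CPM outside the responders, where they were at 5.32 to 33.3 CPM. Only Cdh1 of that list was above this level in every tumor, at 3.75 to 9.78 CPM. In bulk tissue, more cells of a type and more RNA per cell cannot be told apart.

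Levels of different genes were compared per length, as TPM (the same share after division by length) over the union of a gene's exons, which understates genes with many alternative exons. TPM was formed without TMM scaling, so it is not corrected for the gene that held 20.4% of the counts in IgG control 3. B2m was by far the most abundant, at 5728 to 11517 TPM, and ranked between 6 and 13 among all genes in every tumor. H2-D1 (median 1796 TPM) and H2-K1 (median 1687 TPM) followed with overlapping ranges. Written as a percentage of B2m in the same tumor, the medians on the TPM scale were 22% for H2-D1 and 21.7% for H2-K1. The nonclassical genes H2-Q4, H2-Q6 and H2-Q7 formed the next tier at 7.23%, 5.97% and 5.46% of B2m, with ranges that overlapped one another. H2-T22 stood at 3.0%, H2-M3 at 1.15% and H2-T23 at 1.04%, and Nlrc5, which encodes a regulator and no presenting molecule, at 0.373%. In the responders H2-T23 reached 3.63% and 2.84% of B2m, while its highest value among the other 14 tumors was 1.57%. That value was of a non-responder, and H2-M3 was at most 1.17% in non-responders, so H2-T23 exceeded H2-M3 in that tumor. The group medians ran the other way, with H2-T23 below H2-M3 in IgG controls and in non-responders. Like H2-T23, the genes H2-K1, H2-D1 and Nlrc5 were higher relative to B2m in both responders than in any other tumor. These ratios all share B2m as their base, so they are not separate observations. The share of all tested genes with such a ratio to B2m was not computed, so no result about these genes is drawn. H2-K1 was at 26.3% and 27.6% of B2m in responders, against at most 25.0% elsewhere.

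**Figure D1:**
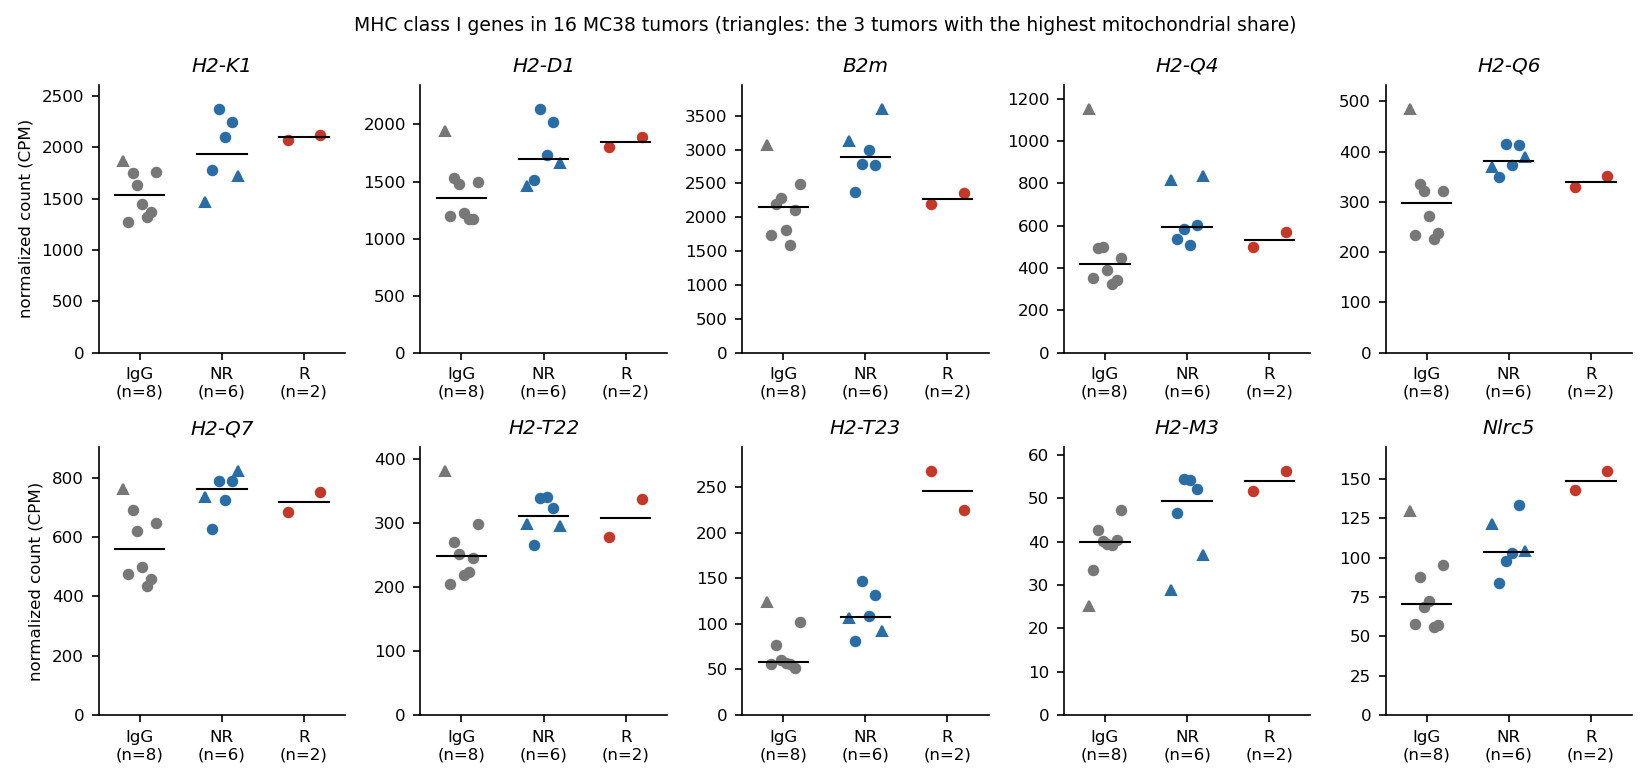
Normalized counts (CPM, linear axes from 0) of the 10 class I genes in each tumor, by group (IgG, IgG control; NR, aPD-1 non-responder; R, aPD-1 responder). Each point is 1 tumor, horizontal lines are group medians, and triangles mark IgG control 1 and non-responders 9 and 14; H2-T23 and Nlrc5 have both responders above all 14 other tumors, and B2m has both responders below all non-responders.

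The comparison of responders with non-responders asked which class I genes differed between treated tumors with more and with fewer stained CD8 T cells. Of the 10 genes, 1 was higher in responders at an adjusted p below 0.05 and 0 were lower, where 15.4% of all tested genes were higher and 4.34% were lower. For the 10 genes DESeq2 gave the same counts, and at an unadjusted p below 0.05 edgeR had 1 gene higher and 0 lower. The gene was H2-T23, which encodes the heavy chain of Qa-1, a nonclassical molecule that presents leader peptides of other class I chains to the receptors CD94/NKG2 of natural killer cells and activated CD8 T cells. H2-T23 was at 268 CPM in responder 15 and 225 CPM in responder 16. In non-responders it ranged from 81.1 to 147 CPM with a median of 107 CPM, and in IgG controls from 51.4 to 124 CPM with a median of 58.6 CPM. Both responders therefore lay above all 14 other tumors, which was also true of 16.7% of all tested genes. Set against non-responders, responders had a log2 fold change of 1.15 (SE 0.29, 95% interval 0.53 to 1.76), a 2.22-fold difference with an edgeR adjusted p of 0.00941. The exact permutation test over the 8 treated tumors gave p = 0.0357 (two-sided), which is the smallest value that 2 against 6 tumors allow. Without responder 15 the log2 fold change was 0.95 and the call was lost (edgeR adjusted p = 0.215), whereas without responder 16 it was 1.22 and the call held (edgeR adjusted p = 0.0357).

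The classical chains were at similar levels in both treated groups. H2-K1 was at 2073 and 2115 CPM in the responders, and at 1464 to 2372 CPM (median 1934) in the non-responders. H2-D1 was at 1800.4 and 1890.2 CPM in the responders, and at 1458 to 2136 CPM (median 1695) in the non-responders. In both genes the responders lay inside the range of the non-responders. The log2 fold changes were 0.11 for H2-K1 (95% interval -0.29 to 0.50, edgeR adjusted p = 0.761) and 0.07 for H2-D1 (95% interval -0.34 to 0.48, edgeR adjusted p = 0.851), so differences beyond about 1.41-fold upward for H2-K1 or 1.40-fold for H2-D1 lay outside the intervals. Both signs turned when the 3 tumors with high mitochondrial shares were left out.

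B2m went the other way. It was at 2195 and 2353 CPM in the responders and at 2376 to 3601 CPM (median 2884) in the non-responders, so that both responders lay below all 6 non-responders, which 13.2% of all tested genes did. The log2 fold change was -0.37 (95% interval -0.82 to 0.08) and did not pass (edgeR adjusted p = 0.262; exact permutation p = 0.0714). The 2 highest B2m values among non-responders belonged to tumors 9 and 14 of the set with high mitochondrial shares.

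Among the nonclassical heavy chains other than H2-T23, none passed. H2-Q6 and H2-Q7 encode Qa-2, a molecule held in the membrane by a lipid anchor, and H2-Q4 encodes a related chain. H2-Q4 was at 500.4 and 568 CPM in responders against 511 to 836 CPM in non-responders, H2-Q6 at 329 and 351 CPM against 349 to 416 CPM, and H2-Q7 at 683 and 750.4 CPM against 628 to 822 CPM. All 3 overlapped between the groups, with log2 fold changes of -0.28, -0.18 and -0.06 and edgeR adjusted p-values of 0.691, 0.659 and 0.881. H2-T22, whose product is recognized by some gamma delta T cells without a bound peptide, was at 278 and 337 CPM in responders and at 266 to 340.3 CPM in non-responders (log2 fold change -0.02, 95% interval -0.42 to 0.39). H2-M3, which presents formylated peptides such as those of bacteria and mitochondria, was at 51.6 and 56.2 CPM in responders and at 28.8 to 54.4 CPM in non-responders (log2 fold change 0.25, 95% interval -0.23 to 0.72). The lowest H2-M3 values among non-responders again came from tumors 9 and 14, and without the 3 tumors of that set the log2 fold change was 0.0025.

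Nlrc5 stood between these patterns. It was at 143 and 155 CPM in the responders, at 83.9 to 133 CPM (median 104) in non-responders and at 55.9 to 129.6 CPM (median 70.6) in IgG controls, so that both responders were above all other tumors. Of the 10 genes, 2 (H2-T23 and Nlrc5) had both responders above all non-responders, beside 21.5% of all tested genes. Set against non-responders, the log2 fold change of Nlrc5 in responders, 0.47 (95% interval -0.08 to 1.02), did not pass (edgeR adjusted p = 0.241), and it did not pass under any of the 23 alternatives run. The median log2 fold change over the 10 genes was 0.03, and over all tested genes it was 0.02.

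**Figure D2:**
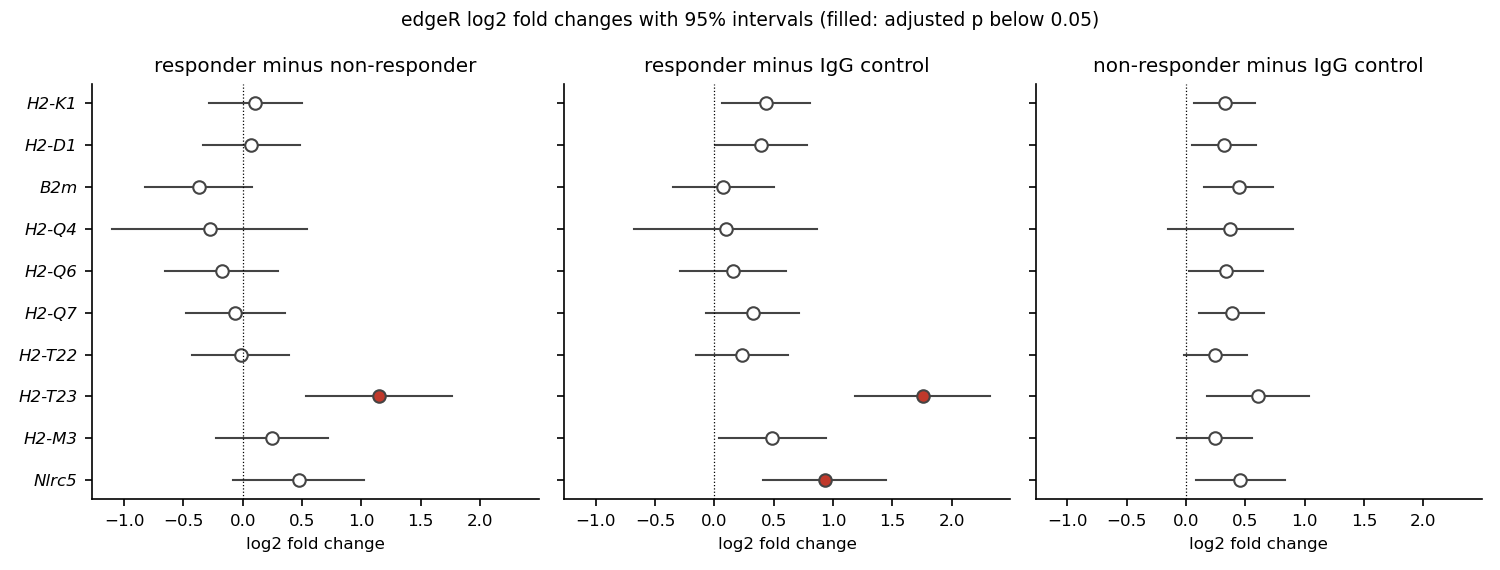
Log2 fold changes from edgeR (horizontal axis) of the 10 class I genes in 3 comparisons, with 95% intervals as lines; filled points have an adjusted p below 0.05. H2-T23 is filled in both comparisons of the responders (1.15 against non-responders and 1.76 against IgG controls), Nlrc5 in the comparison with IgG controls (0.93), and no gene in the comparison of non-responders with IgG controls, where all 10 points lie above 0.

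Against IgG controls, all 10 genes had a positive log2 fold change in responders, and 2 passed, beside 17.7% of all tested genes that were higher. By edgeR and by DESeq2 0 of the 10 were lower at an adjusted p below 0.05, beside 5.17% of all tested genes by edgeR. At an unadjusted p below 0.05 both tools had 5 of the 10 higher and 0 lower. In either direction edgeR had 6079 of all 18251 tested genes at that unadjusted threshold. H2-T23 was 3.38-fold higher (log2 fold change 1.76, SE 0.27, edgeR adjusted p = 1.19e-04), and this call held under all 23 alternatives, with log2 fold changes from 1.55 to 1.85 and adjusted p-values up to 0.0115. Nlrc5 was 1.91-fold higher (log2 fold change 0.93, SE 0.25, edgeR adjusted p = 0.0102). That call was lost when either responder was left out, with log2 fold changes of 0.91 without responder 15 (adjusted p = 0.125) and 0.81 without responder 16 (adjusted p = 0.105).

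The other 8 genes did not pass in this comparison. H2-K1 (log2 fold change 0.43, edgeR adjusted p = 0.0908) and H2-M3 (0.49, edgeR adjusted p = 0.115) had both responders above all 8 IgG controls, as did H2-T23 and Nlrc5, which makes 4 of 10 genes beside 19.3% of all tested genes. H2-K1 was at most 1867 CPM and H2-M3 at most 47.2 CPM in IgG controls. H2-D1 (log2 fold change 0.40) overlapped with the controls through IgG control 1 alone, which was at 1940.3 CPM while the other controls did not exceed 1534 CPM. B2m (0.07), H2-Q4 (0.09), H2-Q6 (0.16), H2-T22 (0.23) and H2-Q7 (0.32) overlapped as well. When IgG control 1 and non-responders 9 and 14 were left out together, 5 genes passed in place of 2, adding H2-K1, H2-D1 and H2-M3. Calls rose over all tested genes too, with 3921 of 17822 higher in place of 3232 of 18251.

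The comparison of non-responders with IgG controls asked whether class I genes differed between treated tumors not designated as responders and controls. The treated side had been selected by CD8 staining after treatment and the controls had not. An effect of aPD-1 cannot be told apart from that selection here. By edgeR 0 of the 10 genes passed, as did 0% of all tested genes, and DESeq2 called 0 of the 10 and 8 of all genes. At an unadjusted p below 0.05 edgeR had 694 genes. All 10 log2 fold changes were nonetheless positive, between 0.24 and 0.61 with a median of 0.35, while the median over all tested genes was -0.01. At that unadjusted threshold 7 of the 10 class I genes were higher, beside 2.56% of all tested genes. They were H2-K1, H2-D1, B2m, H2-Q6, H2-Q7, H2-T23 and Nlrc5, and the 3 others were H2-Q4, H2-T22 and H2-M3.

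B2m showed the smallest p of these genes. It was at 1596 to 3066 CPM (median 2150.4) in IgG controls and at 2376 to 3601 CPM (median 2884) in non-responders, and the highest control was IgG control 1, with the other controls at 2487 CPM or less. Its log2 fold change was 0.44 (95% interval 0.15 to 0.73, unadjusted p = 0.00507, exact permutation p = 0.00932). H2-T23 had the largest log2 fold change, 0.61 (95% interval 0.18 to 1.04, exact permutation p = 0.0157), and H2-Q7, at 434 to 762 CPM (median 558) in controls and a median of 762 CPM in non-responders, had 0.39 (exact permutation p = 0.0140). In each of the 10 genes the ranges of the groups overlapped, and the adjusted p was 0.987 for all of them. The genes other than H2-M3 were correlated from tumor to tumor, so their common sign is not a set of separate observations.

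Taking all 8 aPD-1 tumors against the 8 IgG controls, which is the comparison the treatment itself defines, all 10 log2 fold changes were positive (median 0.35). In the fit of 3 groups, with the treated groups weighted by their size, H2-T23 passed as 1 of 10 genes (log2 fold change 0.89, SE 0.19, edgeR adjusted p = 0.0187), beside 2.4% of all tested genes that were higher. This fit does not count the spread between responders and non-responders as error. When the treated tumors were fitted as 1 group instead, 0 of 10 genes and 0 of all tested genes passed by edgeR (9 and 1800 at an unadjusted p below 0.05), and H2-T23 had a log2 fold change of 1.00 and an adjusted p of 0.223. In the fit of 3 groups the call was lost without responder 15 (adjusted p = 0.216) or responder 16 (adjusted p = 0.138). IgG control 1 weighed as heavily. Without it the fit of 3 groups called 9 of the 10 genes, H2-M3 being the exception, beside 824 of 18104 tested genes that were higher. The fit of 2 groups without IgG control 1 still called 0 of 10, beside 8 of 15905 tested genes. Its edgeR adjusted p-values were 0.0587 for Nlrc5, 0.0743 for H2-T23 and 0.0809 for H2-D1, H2-Q4 and H2-Q6.

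Ratios within a tumor do not depend on the scaling between tumors. They were formed to H2-K1 after the values above had been seen, and are given as a description. The ratio of H2-T23 to H2-K1 was 0.129 in responder 15 and 0.106 in responder 16. In non-responders it ranged from 0.0457 to 0.0725, and in IgG controls from 0.0368 to 0.0665. Both responders lay above all 14 other tumors, as they did for 10.2% of all tested genes, so H2-T23 was higher relative to H2-K1 in these 2 tumors than in any other.

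The ratio of B2m to H2-K1 ran the opposite way. It was 1.06 and 1.11 in the responders, 1.17 to 2.13 in non-responders and 1.21 to 1.64 in IgG controls. H2-Q6 behaved likewise, at 0.159 and 0.166 of H2-K1 in responders and at least 0.172 in the other 14 tumors. Both responders were below all others for these 2 ratios, as for 10.3% of all tested genes, and the ratios of H2-D1, H2-Q4, H2-Q7, H2-T22, H2-M3 and Nlrc5 to H2-K1 overlapped. Set against the sum of H2-K1 and H2-D1, B2m was at 0.567 and 0.588 in responders and at 0.617 or more in all 14 others. That ratio in part restates the ratio of B2m to H2-K1, and its share over all tested genes was not computed.

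**Figure D3:**
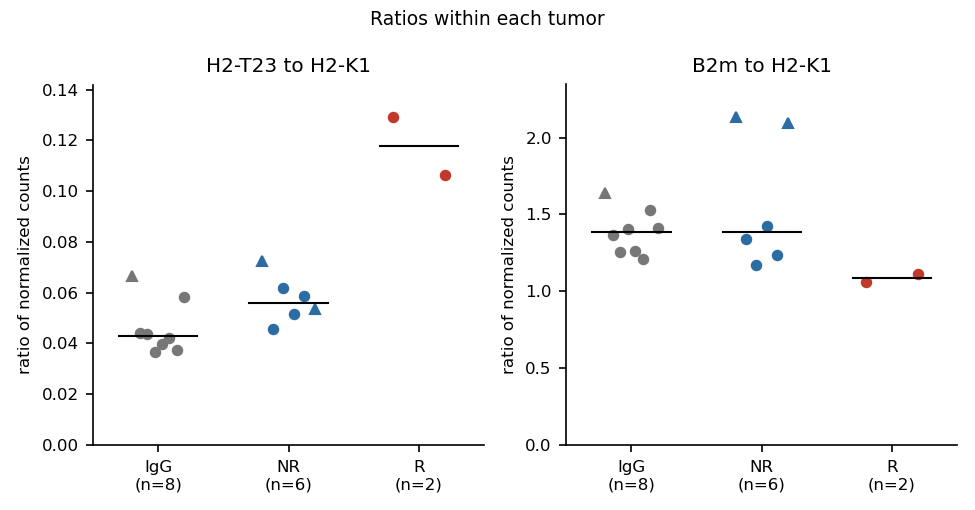
Ratio of the normalized counts of H2-T23 (left) and B2m (right) to those of H2-K1 in the same tumor, on linear axes from 0; each point is 1 tumor, lines are group medians and triangles mark the 3 tumors with high mitochondrial shares. The 2 responders are above all 14 others on the left (0.129 and 0.106) and below all 14 others on the right (1.06 and 1.11).

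Across the tumors that were not responders, the class I genes other than H2-M3 were positively correlated with one another. Correlations are of log2 CPM over the 14 tumors that were not responders, and are descriptive, as the points share their scaling and processing. Among the 36 pairs that do not involve H2-M3, Pearson's r lay between 0.49 and 0.95 with a median of 0.86. The closest pairs were H2-Q6 with H2-Q7 (0.95), which may share reads, and H2-K1 with H2-D1 (0.94). H2-M3 stood apart from these genes, with r between -0.39 and 0.55 in its 9 pairs. This rested on the 3 tumors with high mitochondrial shares, in which H2-M3 was low (25.2, 28.8 and 36.8 CPM) and H2-Q4 was higher than in any other tumor (1152, 816 and 836 CPM). Without them the correlation of H2-M3 with Nlrc5 was 0.87 over 11 tumors, against -0.02 over 14.

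**Figure D4:**
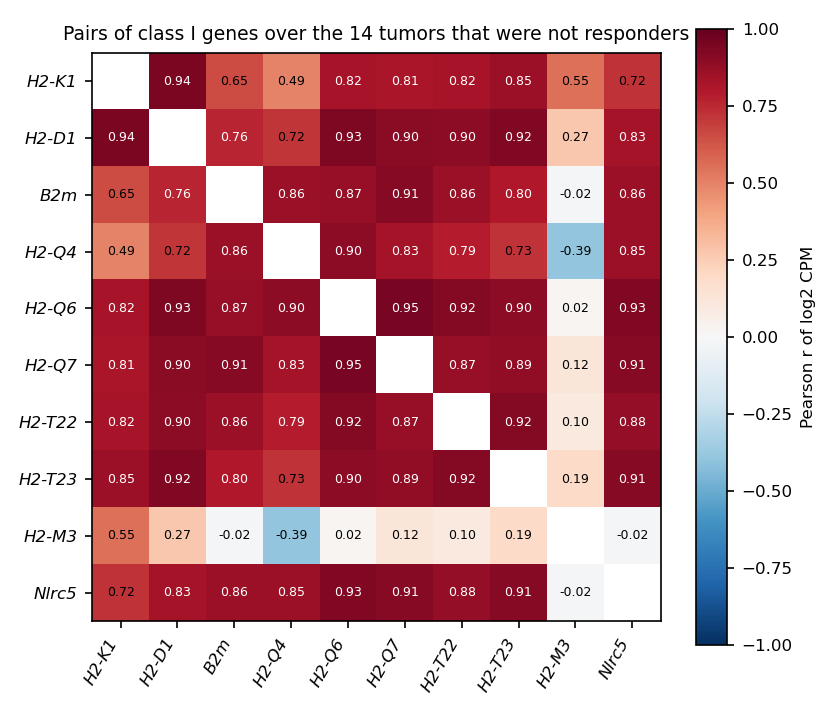
Pearson's r of log2 CPM for each pair of the 10 class I genes over the 8 IgG controls and 6 non-responders, as a color scale from -1 to 1 with the value in each cell. Pairs without H2-M3 lie between 0.49 and 0.95, and the row of H2-M3 lies between -0.39 and 0.55.

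H2-T23 followed Nlrc5 and Cd8a from tumor to tumor, also where no responder was included. Over the 14 other tumors, r between H2-T23 and Nlrc5 was 0.91 (Spearman's rho 0.89, and r 0.88 without the 2 tumors of most extreme Nlrc5), and over the 8 IgG controls alone it was 0.96 (0.89 without the 2 most extreme). With Cd8a, a chain of the CD8 co-receptor and the kind of cell by which responders had been defined, r was 0.89 over 14 tumors (rho 0.89, and r 0.91 without the 2 tumors of most extreme Cd8a) and 0.89 over the 8 controls (0.72 without the 2 most extreme). With the pan-leukocyte gene Ptprc it was 0.28 over 14 tumors, -0.14 over the 8 controls and 0.76 over the 11 of them outside the set with high mitochondrial shares. H2-K1 followed Tap1, a subunit of the peptide transporter (r 0.96) over the 14 tumors. IgG control 8 was the control with the most Cd8a (11.5 CPM) and the second most H2-T23 (102 CPM).

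**Figure D5:**
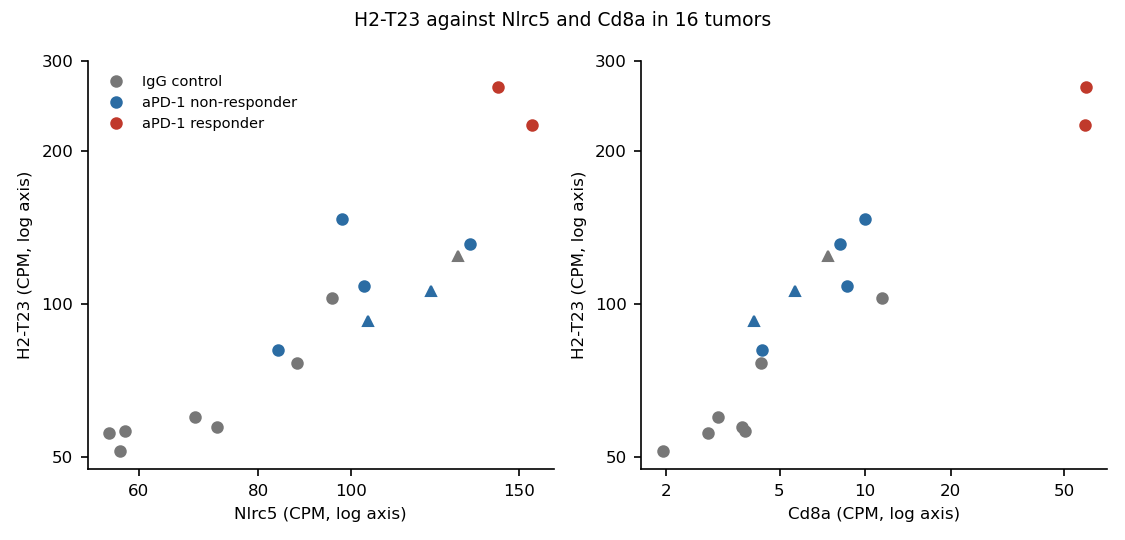
H2-T23 (vertical) against Nlrc5 (left) and Cd8a (right) in each of the 16 tumors, in CPM on log axes; colors are the groups and triangles the 3 tumors with high mitochondrial shares. The 2 responders are at the top right of both panels (H2-T23 at 268 and 225 CPM, Cd8a at 59.7 and 59.2 CPM), and the other 14 tumors rise together below them.

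The genes most like the class I genes over all 16 tumors were found from the mean z score of the 10 genes. The 5 with the highest Pearson's r were Gbp3 (0.94), Slc11a1 (0.93), Trafd1 (0.93), Cxcl11 (0.93) and Gbp6 (0.92). Over the 14 tumors without the responders their r lay between 0.93 and 0.96. Cxcl11 was low throughout, at 0.520 to 3.14 CPM, and Gbp3 ranged from 120.2 to 292 CPM.

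Genes that supply and load class I peptides gave few calls. Of 13 such genes, 0 passed between responders and non-responders in either direction by edgeR or DESeq2. Over all tested genes edgeR had 15.4% higher and 4.34% lower. At an unadjusted p below 0.05 edgeR had 0 of the 13 higher and 1 lower, with a median log2 fold change of -0.01. Tap1 was the only one of the 13 to pass in responders against IgG controls, beside 17.7% of all tested genes that were higher. It was at 255 and 264 CPM in responders and 114 to 196 CPM in controls (log2 fold change 0.72, SE 0.20, edgeR adjusted p = 0.0145). Of 13 genes of the interferon gamma response, 0 passed between responders and non-responders by edgeR or DESeq2, beside the 15.4% and 4.34% of all genes. At an unadjusted p below 0.05 edgeR had 0 of them, beside 5690 of all 18251 tested genes (median log2 fold change 0.19 over the 13). In the comparison with IgG controls 8 were higher in responders (median log2 fold change 0.93), beside 17.7% of all tested genes (median -0.02), among them Cd274, which encodes PD-L1, at 70.9 and 150.1 CPM in responders and 34.2 to 62.5 CPM in controls. Between non-responders and IgG controls 0 of these 13 genes passed by edgeR and 1 by DESeq2, and 12 were higher at an unadjusted p below 0.05 by edgeR, beside 2.56% of all tested genes (median log2 fold change 0.68, and -0.01 over all tested genes). Ifng itself was at 2.01 and 7.40 CPM in the responders and at 0.729 to 3.37 CPM in non-responders.

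Of 17 genes that act on class I transcription, 5 were higher in responders than in non-responders and 0 were lower by edgeR, beside 15.4% and 4.34% of all tested genes. At an unadjusted p below 0.05 edgeR also had 5 higher and 0 lower, DESeq2 called 5 and 0, and the fit of only the groups compared called 3 and 0. The 5 genes were Ciita, the class II counterpart of Nlrc5 (log2 fold change 2.71), Jak1 (0.92), Jak2 (0.59), Rfx5 (0.51) and Ifngr1 (0.34). Irf1 overlapped between responders and non-responders, and between responders and IgG controls.

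A list of 10 genes held receptors of class I or class I-like molecules and relatives of such receptors. Of these 10, 6 were higher in responders than in non-responders, beside 15.4% of all tested genes. In the other direction 1, Klra2, was lower (log2 fold change -0.64), beside 4.34% of all tested genes. Cd8a was at 59.7 and 59.2 CPM in responders against 4.06 to 9.97 CPM in non-responders, which restates how the groups were drawn. Of the receptor that binds Qa-1, Klrd1 (CD94) was at 8.45 and 14.3 CPM against 2.16 to 5.44 CPM (log2 fold change 1.49, edgeR adjusted p = 0.0304), Klrc2 (NKG2C) at 1.3 and 4.16 CPM against 0.395 to 0.925 CPM (2.0, edgeR adjusted p = 0.00715), and Klrc1 (NKG2A) at 4.85 and 14.7 CPM against 2.79 to 6.11 CPM (1.15, edgeR adjusted p = 0.0836). Responder 15 had more H2-T23 than responder 16, and less of all 3 receptor genes.

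Markers of several cell types were also higher in the responders, in which H2-T23 was high, while those of other cell types gave no call. Between responders and non-responders, 6 of 6 T cell, 6 of 6 B cell, 3 of 3 natural killer cell, 4 of 4 dendritic cell, 3 of 4 plasma cell and 4 of 4 fat cell markers were higher, as were 1 of 6 macrophage, 2 of 4 endothelial and 5 of the 6 tested colon epithelium markers. Over all tested genes 15.4% were higher and 4.34% were lower by edgeR at an adjusted p below 0.05. By edgeR and by DESeq2 0 of 4 fibroblast, 0 of 4 skeletal muscle and 0 of 4 keratinocyte markers passed. At an unadjusted p below 0.05 edgeR had 0, 0 and 1 of these markers, the last lower, beside 5690 of all 18251 tested genes. The summed B cell markers were at 1113 and 304 CPM in responders and at no more than 7.41 CPM elsewhere, and the summed T cell markers at 179 and 158 CPM against no more than 25.5 CPM. Ptprc had a log2 fold change of 2.0, which is larger than that of H2-T23. The part of these cells in the H2-T23 and Nlrc5 results was not tested.

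Reads of some class I genes fit more than 1 gene, and the authors' estimates divide such reads. The deposited values of H2-Q4, H2-Q6, H2-Q7 and H2-T22 were not whole numbers in 15, 16, 16 and 15 of the 16 tumors, whereas those of H2-K1, B2m, H2-T23, H2-M3 and Nlrc5 were whole in every tumor. Of all stretches of 100 bases in annotated transcripts, 12% of those of H2-Q7, 10.8% of H2-Q6, 8.86% of H2-T22, 3.59% of H2-D1, 3.15% of H2-T23, 2.16% of H2-Q4 and 0.957% of H2-K1 also occurred in another gene, and none of those of B2m, H2-M3 and Nlrc5. The levels of H2-Q4, H2-Q6, H2-Q7 and H2-T22 are thus less certain than the others. Counting H2-Q6 and H2-Q7 as 1 gene left the number of genes that passed as it was in each comparison.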

How the data were processed

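Bulk RNA-seq of 16 MC38 tumors was analysed. The authors aligned strand-specific, poly(A)-enriched paired reads of 150 bases to the GRCm38 genome (STAR 2.6) and deposited expected counts per gene from RSEM 1.3.0 over Ensembl 91 genes, which divide reads among near copies. Expected counts were rounded, and 92 spike-in entries (at most 185 counts in a tumor) were left out. GENCODE mouse release 21 gave symbols, exon lengths and gene coordinates. RefSeq (GRCm38.p6) gave promoter windows. Each tumor was taken as a replicate, and no 2 libraries were alike beyond sampling noise (in 120 pairs, chi-square divided by its degrees of freedom was at least 16.3).

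The main test was edgeR 4.0.16 (R 4.3.3) with TMM scaling, filterByExpr, robust quasi-likelihood and Benjamini-Hochberg adjustment over 18251 genes, in 1 fit of 16 tumors. A gene passed at an adjusted p below 0.05. Intervals are 95% intervals on 16.5 residual degrees of freedom. Single genes were also compared by exact permutation tests, two-sided, with scipy 1.17.1. Log2 CPM used a prior count of 2. On simulated counts for the responder and non-responder comparison (18251 genes), 51% of 2-fold and 92% of 4-fold changes were recovered, with 5.92% of calls false. The changes were planted only in genes with high counts, and genes were drawn independently, without tumors that stand apart. These rates hold for that setting and were not measured for the real tumors.

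The 10 genes and all gene and marker lists were chosen with earlier results of these data known, and all 10 genes are named. The alternatives were DESeq2 1.42.0, median-of-ratios size factors, an unfiltered table, a minimum of 10 counts in 8 tumors, fits restricted to the compared groups, near copies summed and the omission of each tumor in turn. Leaving out the 3 tumors that stood apart, and fits of 2 groups without them or without IgG control 1, were added after the data were seen, as were the ratios to H2-K1. The values of 1 gene of the lists are not reported here.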

Additional observations from a re-analysis of the deposited data

Results flagged for a closer look

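In IgG control 1, H2-D1 (1940.3 CPM), H2-Q4 (1152 CPM) and H2-Q6 (485 CPM) lay farther above the other 7 IgG controls than Dixon's 95% critical value for 8 samples allows. The other controls did not exceed 1534 CPM for H2-D1, 499 CPM for H2-Q4 and 335 CPM for H2-Q6. These were 3 of 20 groups of values examined, and chance flags about 1 in 20. The same tumor had 7.60% of its counts from mitochondrial genes, against 2.52% to 3.21% in the other controls, and the part of this difference in its class I levels was not tested.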

How the results depend on the processing

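Between responders and non-responders, 1 gene passed (H2-T23), and 0 to 1 with each tumor left out (0 without responder 15). Against IgG controls 2 passed in responders, 1 to 3 with each tumor left out and 5 without the 3 tumors that stood apart. For aPD-1 against IgG, 1 passed, 2 with DESeq2 (H2-T23 and Nlrc5), 0 in the fit of only the groups compared, 0 to 9 with each tumor left out and 9 without the 3 tumors that stood apart (all but B2m), while the fit of 2 groups gave 0 without IgG control 1 and 0 without those 3 tumors. Of 932 values of single genes under the alternatives, 891 kept their sign and side of the threshold, 8 lost a call, 21 gained one and 12 changed sign, all of them with adjusted p-values of 0.744 or more. In responders minus non-responders, H2-K1 was -0.073 without the 3 tumors that stood apart. H2-D1 was -0.0593 without them and -0.00421 with no filter, and ranged from -0.0291 to 0.138 with each tumor left out. H2-T22 was 0.0041 under the filter of 10 counts in 8 tumors and ranged from -0.215 to 0.0475 with each tumor left out. In responders minus IgG, B2m was -3.38e-05 with no filter and ranged from -0.0338 to 0.106 with each tumor left out, and H2-Q4 ranged from -0.0581 to 0.335. Over all tested genes, 3599 passed between responders and non-responders (5802 without the 3 tumors that stood apart, 1039 without responder 15), 4175 between responders and IgG (7409 and 1398) and 446 between aPD-1 and IgG (2027 without the 3 tumors, 866 with DESeq2, 297 with no filter, 0 in the fit of only the groups compared, and 0 to 1118 with each tumor left out, the latter without IgG control 1). Between non-responders and IgG 0 passed by edgeR, 8 by DESeq2 and 7 without IgG control 1. The cause of these changes was not tested. Where 1 responder was left, it was assumed to vary like the other groups. With 2 responders, an exact test against non-responders cannot go below 0.0357. No paired analysis was possible because the tumor numbers are unique to each tumor and no number is shared between groups.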

Other observations

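Other class I and class I-like genes were also measured. Of 20 such genes listed, 17 were matched and 11 were tested, and 5 of these 11 were higher in responders than in non-responders and 0 were lower by edgeR and by DESeq2 (7 higher and 0 lower at an unadjusted p below 0.05), beside 15.4% and 4.34% of all tested genes, with a median log2 fold change of 1.48, against 0.02 over all tested genes. Cd1d1, which presents lipids to natural killer T cells, was at 41.9 and 18.3 CPM in responders and at 3.59 to 6.09 CPM in non-responders (log2 fold change 2.64). H2-T24 was at 26.3 and 18.9 CPM against 2.86 to 6.76 CPM (2.22), H2-M2 at 8.42 and 7.51 CPM against 0.339 to 0.987 CPM (3.66) and H2-Q10 at 6.30 and 5.2 CPM against 1.32 to 3.18 CPM (1.48). Fcgrt, the neonatal Fc receptor chain that also pairs with B2m, was at 132.8 and 49.6 CPM against 17.2 to 46.0 CPM (1.61). All 5 passed by edgeR at an adjusted p below 0.05. H2-T10, the close relative of H2-T22, was at 30.9 and 32.2 CPM in responders and 24.7 to 41.1 CPM in non-responders (log2 fold change -0.03), and Mr1, which presents vitamin metabolites, was at 19.3 and 22.2 CPM against 13.8 to 23.2 CPM (0.12). Ptprc was higher in both responders as well, and the part of the leukocyte difference between the groups in these values was not tested.

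A further look at class I genes outside the lists, chosen after their values were seen, gave H2-T-ps at 2.84 and 2.93 CPM in responders and 0.982 to 1.5 CPM in non-responders (log2 fold change 1.22, edgeR adjusted p = 0.00264). H2-Q5 was at 48.7 and 55.6 CPM against 40.7 to 54.6 CPM (log2 fold change 0.17), and H2-K2 at 3.07 and 2.36 CPM against 0.851 to 2.10 CPM (log2 fold change 0.93, edgeR adjusted p = 0.153).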
